A study of Mus musculus with 79 samples.

Results

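The nuclear genes that encode subunits of the oxidative phosphorylation complexes were followed in mouse embryonic stem cells during treatment with retinoic acid (RA), which drives their differentiation. Members were chosen by gene symbol: the Nduf subunit genes of complex I, Sdha to Sdhd of complex II, the Uqcr genes of complex III, the Cox4 to Cox8 genes of complex IV and the Atp5 genes of complex V, with Atp5g1 left out by the rule. For each gene the transcript with the highest mean signal was taken. This gave 81 genes on 19 chromosomes, with 37 of complex I, 4 of complex II, 8 of complex III, 17 of complex IV and 15 of complex V. The tables that hold them list 19526 genes for E14 cells, 19492 for the clones and 25335 for SCC1-mAID cells.

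RNA was measured in 79 libraries in 3 sets. The first set is total RNA of wildtype E14 cells without RA (0 h) and at 6 later times up to 72 h of 1 uM RA (2, 4, 6, 24 and 48 h between), with 2 libraries at 0 h, 3 at 24 h and 4 at each of the rest. Its last time is 72 h in the sample titles and 74 h in the sample characteristics. The second set is nuclear RNA of 3 E14 clones at the same times, but with 74 h as the last, with 2 libraries per clone and time. Clones E3 and H12 carry a deletion of a transient enhancer in the Hoxb locus (genotype E14;HoxTransEdel), and clone G4 was obtained beside them without it (E14;HoxTransEwt). Each of the 3 is a lone clone, so a clone and its genotype cannot be told apart for E3, H12 or G4. The third set is nuclear RNA of SCC1-mAID cells (E14;Rosa26::Tir1;Scc1-mAID-eGFP), whose cohesin subunit SCC1 carries a tag through which auxin, here 500 uM, brings about its loss. It has 3 libraries in each of 4 groups: auxin for 6 h with RA in the last 4 h, auxin alone for 6 h, RA alone for 4 h, and untreated. All cells were grown in serum with leukemia inhibitory factor, and all 3 sets held added Drosophila SG4 cells. The E14 replicates are called biological in the study's design text. For the other sets nothing says that libraries came from separate cultures, so their p-values measure only the spread between these libraries.

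Oxidative phosphorylation takes place in the inner mitochondrial membrane. Complex I takes electrons from NADH and complex II takes them from succinate. Both pass them through ubiquinone to complex III, and cytochrome c carries them on to complex IV, where oxygen is reduced. Complexes I, III and IV pump protons, and complex V, the ATP synthase, uses the proton gradient to make ATP. Most subunits are encoded in the nucleus, while a few core membrane subunits of every complex except II are encoded in mitochondrial DNA and are not part of the gene set described here. Pluripotent stem cells are known for a high rate of glycolysis, and differentiation is often accompanied by changes in respiration.

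Library depth was 2352131 to 21082293 reads over genes in E14, 4754309 to 10450047 in the clones and 3126363 to 7499042 in SCC1-mAID cells. In E14 the 0 h libraries held 16236541 and 21082293 reads. Those at 48 h held 2425198 to 3034305 and those at 72 h 2352131 to 3267505. Late times against 0 h in E14 thus set shallow libraries against deep ones. Levels are given as CPM, reads scaled to an equal library total after TMM scaling, and a change was called at a Benjamini-Hochberg adjusted p under 0.05 in edgeR's quasi-likelihood test over all genes of the set. The low-count filter left 77 members in E14, 78 in the clones and 77 in SCC1-mAID cells. Cox6a2 and Cox8c, muscle and testis isoforms of complex IV, were left out in all 3 sets. Ndufs5 was left out in E14 with 153 reads over 25 libraries, and Cox7b2 with 64 reads. To check the embryonic stem cell label, 8 marker genes, among them Pou5f1 and Nanog, were examined, and all were detected at 0 h. In E14 they summed to 643 to 1987 CPM at 72 h and 2630 to 2635 CPM at 0 h. In the clones they summed to 96.0 to 321 CPM at 74 h and 1514 to 2148 CPM at 0 h. In E14, markers of extra-embryonic endoderm summed to 844 to 1709 CPM at 72 h and 163 to 170 CPM at 0 h. Those of neural progenitors summed to 135 to 350 and 93.6 to 110 CPM. Those of 2-cell-like cells summed to 104 to 303 and 4.58 to 7.31 CPM. Those of mesoderm and mesenchyme, pooled in 1 list, summed to 328 to 575 and 63.9 to 66.0 CPM. That list holds T, Mesp1, Tbx6 and Meox1 beside Twist1, Snai2, Col1a1 and Col3a1. Its sum does not tell mesoderm from mesenchyme. The E14 replicates stood apart from each other at early times. At 2, 4 and 6 h mesoderm and mesenchyme markers summed to 307 to 805 CPM in replicates 1 and 2 and to 43.6 to 66.5 CPM in replicates 3 and 4. In the same order neural progenitor markers summed to 177 to 200 CPM and 51.7 to 98.3 CPM. At 24 h mesoderm and mesenchyme markers summed to 393 CPM in replicate 1 and to 87.8 and 69.2 CPM in replicates 3 and 4. The 0 h group holds replicates 3 and 4 and no other, so E14 results are also given within those replicates. Clone H12 stood apart at 74 h, with a summed level of 8 extra-embryonic endoderm markers of 7513 to 7952 CPM, against 817 to 1020 CPM in E3 and 830 to 1190 CPM in G4. The part of these cell types in the results below was not tested. In bulk RNA, fewer cells of a type and less RNA per cell cannot be told apart.

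Per length, the subunit genes spanned a wide range in E14 cells at 0 h. Levels between genes are compared here on the authors' FPKM, which divides by transcript length. Cox4i1, a large nuclear-encoded subunit of complex IV, was highest at 505 ± 5.25 FPKM (SD, n = 2). It was followed by the catalytic beta subunit of complex V, Atp5b, at 295 ± 16.3 FPKM, then by Cox6a1 at 234 ± 2.74 FPKM and Ndufa4 at 189 ± 14.5 FPKM. Ndufa4 is named for complex I but has been found in complex IV. Neighbours further down this order, such as Atp5g3 at 150 to 170 FPKM, Cox8a at 149 to 165 FPKM and Atp5a1 at 148 to 158 FPKM, overlapped between their 2 libraries. The median member had 37.5 FPKM in complex I, 34.9 in complex II, 71.2 in complex III, 71.8 in complex IV and 62.1 in complex V. Several tissue isoforms were close to 0. Cox4i2 had 0.347 FPKM, Cox7b2 0.351, Cox8c 0.167 and Cox6a2 0.114 FPKM, while Cox7a1, the muscle isoform, had 6.64 FPKM and Ndufa4l2, a relative of Ndufa4 that is known to rise in hypoxia, had 1.06 FPKM. In reads rather than per length, 5 members held 33.6% of the summed CPM of all 81 and 10 held 45.0%. The authors' own class was "stably_active" for 74 members, "stably_inactive" for 4, "stablish" for 2 and "repressed" for 1.

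Many of these genes have processed copies elsewhere in the genome, which bears on reads of 42 bases. Of the 81 members, 42 shared no 42-base stretch of their transcript with another gene's transcript, while 24 shared at least 10% of such stretches and 5 shared at least 50%. The 5 were Atp5g2 with 87.5%, Atp5l with 69.0%, Ndufa12 with 56.0%, Atp5h with 54.5% and Cox7c with 53.7%. How reads that match several places were counted is not given in the sources used here, so values of these 5 genes, and of Uqcrb (48.0%), Ndufs5 (43.8%), Ndufs3 (40.6%), Atp5o (40.0%) and Ndufb4 (37.5%), are uncertain, and to a lesser degree those of the rest of the 24. Cox4i2 shares 58% of its span with Bcl2l1 on the other strand, and Ndufs1 shares 44.2% of its span with Ino80dos on the other strand. Whether counting used the strand is not stated. This bears most on Ndufs1 in nuclear RNA, which was counted over whole gene spans.

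Promoters of 4 members that are described below for lower RNA at the last time are shown to place known motifs. Windows of 300 bases, from 250 before to 50 after the start, were taken from RefSeq on GRCm38.p6, 5′ to 3′ on the gene's strand, and 66 of the 81 members had one. Those not matched included Uqcrc2, Uqcrb, Cox4i1, Atp5a1, Cox8c, Sdhc, Cox6a2, Ndufs1, Ndufb9, Uqcrq, Ndufa2, Cox6c, Cox4i2 and Ndufa4l2. Capitals mark the motif: the NRF1 core GCGCATGC in Atp5g2 at chr15:102670998-102671297 and Atp5l at chr9:44920693-44920992, the ETS motif CCGGAAGT, bound by GABPA among others, in Cox8a at chr19:7217567-7217866, and the YY1 motif AAGATGGCG in Ndufs6 at chr13:73328433-73328732. All 4 genes are on the minus strand. In Atp5g2 the NRF1 letters match on both strands and the 2 matches overlap. In Atp5l and Cox8a the letters run on the opposite strand and so appear as their reverse complement.
Atp5g2: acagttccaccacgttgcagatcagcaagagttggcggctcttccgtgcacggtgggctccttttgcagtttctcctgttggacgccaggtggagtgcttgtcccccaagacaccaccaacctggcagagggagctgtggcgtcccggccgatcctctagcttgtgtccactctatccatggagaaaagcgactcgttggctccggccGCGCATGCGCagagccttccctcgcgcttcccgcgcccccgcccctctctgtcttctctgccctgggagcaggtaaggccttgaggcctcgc
Atp5l: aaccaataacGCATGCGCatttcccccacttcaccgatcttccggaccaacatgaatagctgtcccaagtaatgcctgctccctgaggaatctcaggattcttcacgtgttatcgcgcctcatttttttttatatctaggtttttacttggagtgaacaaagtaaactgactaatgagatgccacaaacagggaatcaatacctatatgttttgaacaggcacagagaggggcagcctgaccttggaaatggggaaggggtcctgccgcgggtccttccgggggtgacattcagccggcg
Cox8a: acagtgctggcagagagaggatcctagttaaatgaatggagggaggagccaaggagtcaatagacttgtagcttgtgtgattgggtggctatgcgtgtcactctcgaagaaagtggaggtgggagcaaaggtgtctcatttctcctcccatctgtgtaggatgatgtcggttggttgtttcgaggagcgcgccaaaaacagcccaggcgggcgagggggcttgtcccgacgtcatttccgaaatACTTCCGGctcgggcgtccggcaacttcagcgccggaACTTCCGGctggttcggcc
Ndufs6: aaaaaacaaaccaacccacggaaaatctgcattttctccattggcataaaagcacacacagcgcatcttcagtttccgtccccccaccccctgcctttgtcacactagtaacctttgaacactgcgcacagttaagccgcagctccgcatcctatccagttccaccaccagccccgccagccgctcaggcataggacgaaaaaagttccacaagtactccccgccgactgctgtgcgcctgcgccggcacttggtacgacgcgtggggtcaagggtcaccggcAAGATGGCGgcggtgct

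These motifs were searched on both strands in the 66 member windows and in 27025 windows of the same length, 1 per gene. For a member the window nearest the start of its transcript was taken, and 48 of the 66 lay at that start. For all genes it was the first window listed, whether or not the gene was expressed. The 2 shares thus do not come from windows chosen alike, and expressed genes were not counted apart. The NRF1 core was found in 10 member windows (15.2%) and in 2.80% of all windows. It lay in 3 of 32 windows of complex I, 1 of 3 of complex II, 2 of 5 of complex III, 1 of 12 of complex IV and 3 of 14 of complex V. The ETS motif was in 5 member windows (7.58%) and 4.00% of all windows, and the YY1 motif was in 6 (9.09%) and 1.49%. Of those 6, 5 were complex I genes. The estrogen-related receptor motif TCAAGGTCA was in 2 member windows (3.03%) and in 0.407% of all. In all, 22 member windows held at least 1 of the 4 motifs. A match is a run of letters, not a bound site.

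In E14 total RNA no subunit gene was called as changed in the first 6 h of RA. At 2, 4 and 6 h against 0 h none of the 77 members was called by edgeR, none had an unadjusted p under 0.05, and DESeq2 and both limma fits also called none. Of all genes, 0.497% were called at 2 h, 2.44% at 4 h and 3.96% at 6 h. The members' median log2 fold change was 0.08 at 2 h, 0.00 at 4 h and -0.01 at 6 h. Complex IV, for example, summed to 1631 to 1995 CPM at 4 h and to 1792 and 1891 CPM in the 2 libraries at 0 h, so the groups overlapped. Cox4i1 and Atp5b, the most abundant members per length, had adjusted p of 0.939 and 0.737 at 4 h. Within replicates 3 and 4 no member was called at 2, 4 or 6 h either.

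At 24 h of RA 3 members were called in E14, against 27.4% of all genes (14.1% higher and 13.3% lower). Ndufa4l2 rose, with 7.25, 4.81 and 4.76 CPM at 24 h against 1.63 and 2.01 CPM at 0 h, a log2 fold change of 1.62 ± 0.45 (SE, adjusted p = 0.00831). All 3 libraries lay above both at 0 h. Ndufb9, an accessory subunit of the membrane arm of complex I, fell by 0.54 ± 0.15 on the log2 scale (adjusted p = 0.00886), and Atp5g2, which encodes the membrane-ring subunit c of complex V, fell by 0.92 ± 0.29 (adjusted p = 0.0190). With the 0 h library of replicate 4 left out none of the 3 was called, and without replicate 3 at 0 h 1 was, Ndufb9. Within replicates 3 and 4, 4 members fell and 1 rose.

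At 48 h against 24 h, which does not use the 0 h libraries, 13 members fell and none rose, against 22.7% of all genes called (11.1% higher and 11.6% lower), and 68 of 77 lay below 0. Of the 20 core subunits, 8 fell and none lay above 0. The falls took in Ndufs1 (log2 fold change -0.40) and Ndufv1 (-0.39), which carry electrons from NADH towards ubiquinone, Uqcrc1 (-0.34), a core protein of complex III, Cox4i1 (-0.38), and the alpha, beta and gamma subunits of complex V, Atp5a1 (-0.36), Atp5b (-0.31) and Atp5c1 (-0.46). Against 0 h, 17 members fell and 2 rose at 48 h, where 55.7% of all genes were called (28.8% higher and 26.9% lower). With the authors' own scaling in place of TMM, 3 members fell and none rose at 48 h against 24 h. Leaving out any library at 24 h, or replicate 3 or 4 at 48 h, left 5 to 7 falls. Against 0 h, the authors' scaling gave 10 falls and 2 rises at 48 h, and without replicate 4 at 0 h there were 8 falls and 1 rise. Within replicates 3 and 4 there were 35 falls and 2 rises at 48 h against 0 h, and 19 falls and no rise at 48 h against 24 h.

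At 72 h against 0 h, 21 members fell and 2 rose in E14. Of all genes 59.7% were called, 30.4% higher and 29.3% lower, and of the members 29.9%. The members' median log2 fold change was -0.21 and that of all genes 0.00. By complex, 10 of 36 members fell in complex I, 3 of 8 in complex III, 5 of 14 in complex IV and 3 of 15 in complex V, while none of 4 fell in complex II. The median was -0.21 in complex I, 0.03 in complex II, -0.18 in complex III, -0.26 in complex IV and -0.14 in complex V. This count depended on the scaling. With the authors' size factors 2 members fell (Atp5g2 and Cox7c) and 8 rose (Atp5d, Atp5f1, Cox4i2, Cox7a2l, Ndufa2, Ndufv2, Sdhc and Uqcrfs1). That scaling moved the median of all genes to 0.27 and of the members to 0.07, so the members lay 0.20 below all genes, against 0.21 with TMM. Of the E14 changes named in what follows, those of Cox7c, Atp5g2, Sdhc and Cox4i2 at 72 h were also called with that scaling, and the 72 h falls of Cox4i1, Cox7a2, Cox6a1, Cox6c, Ndufs6 and Uqcrb were not. Within replicates 3 and 4, scaled by TMM, 27 members fell and 2 rose. The count also depended on single libraries: 7 members were called without replicate 4 at 0 h, 13 without replicate 3 at 0 h, 15 without replicate 2 or replicate 3 at 72 h, and 28 without replicate 1 at 72 h.

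In complex IV, 5 members fell in E14 at 72 h and 1 rose. Cox7c, a small subunit of complex IV (mm10 chr13:86044798-86046795), had 35.1, 34.2, 23.6 and 29.7 CPM at 72 h against 59.6 and 65.3 CPM at 0 h. Its log2 fold change was -1.03 ± 0.14 (SE, adjusted p = 6.49e-07), and the groups did not overlap. Cox4i1 (mm10 chr8:120668320-120674209) had 502, 407, 360 and 391 CPM at 72 h against 597 and 609 CPM at 0 h, a change of -0.54 ± 0.14 (adjusted p = 0.00183), also with no overlap. Cox7a2, the widely expressed isoform of subunit VIIa, Cox6a1 and Cox6c fell by 0.60, 0.46 and 0.39 on the log2 scale. The isoform Cox4i2 was called higher at a very low level, with 1.64, 0.317, 1.51 and 2.48 CPM at 72 h against 0.376 and 0.525 CPM at 0 h. Its groups overlapped, since the 72 h library of replicate 2 was lowest of all. The summed complex IV level was 1754, 1293, 1254 and 1268 CPM at 72 h and 1792 and 1891 CPM at 0 h, with replicate 1 at 72 h apart from the other 3.

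In the other complexes 16 members fell in E14 at 72 h and 1 rose. Atp5g2 (mm10 chr15:102662868-102671047) had 0.657, 2.85, 3.33 and 2.06 CPM at 72 h against 11 and 9.60 CPM at 0 h, with a log2 fold change of -2.18 ± 0.31 (SE, adjusted p = 1.53e-06) and no overlap. The other subunit c gene among the members, Atp5g3, changed by -0.24 ± 0.14 (adjusted p = 0.146). In complex I the largest fall was in Ndufs6, an accessory subunit near the NADH-oxidising end (mm10 chr13:73319876-73328482). It had 36.5, 28.2, 29.6 and 31.4 CPM at 72 h against 48.4 and 51.6 CPM at 0 h, a change of -0.67 ± 0.16 (adjusted p = 0.000620) with no overlap. In complex III Uqcrb, a small subunit, fell by 0.52 ± 0.19 (adjusted p = 0.0189), although its 72 h library of replicate 1, at 32.5 CPM, lay close to the 32.7 CPM of the lower 0 h library. Sdhc, a membrane anchor of complex II, rose, with 75.5, 58.9, 72.6 and 63.2 CPM at 72 h against 53.5 and 52.3 CPM at 0 h (0.35 ± 0.14, adjusted p = 0.0360). Ndufa4l2 had 10.8, 3.70, 9.17 and 4.35 CPM at 48 h, still called above 0 h (1.95, adjusted p = 0.000392). At 72 h its level was 2.63, 0.950, 3.63 and 2.06 CPM, its change against 0 h was 0.35 ± 0.48 (adjusted p = 0.543), and it fell between 48 and 72 h by 1.59 ± 0.42 (adjusted p = 0.0156). At 72 h against 48 h Cox7c also fell (-0.43) and Sdhc rose (0.44), against 12.5% of all genes called (6.39% higher and 6.09% lower). With the authors' scaling 11 members rose, among them Sdhc, and 1 fell, Ndufa4l2, while Cox7c was not called (-0.22, adjusted p = 0.262), and without replicate 1 or replicate 3 at 48 h none was called.

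**Figure D1:**
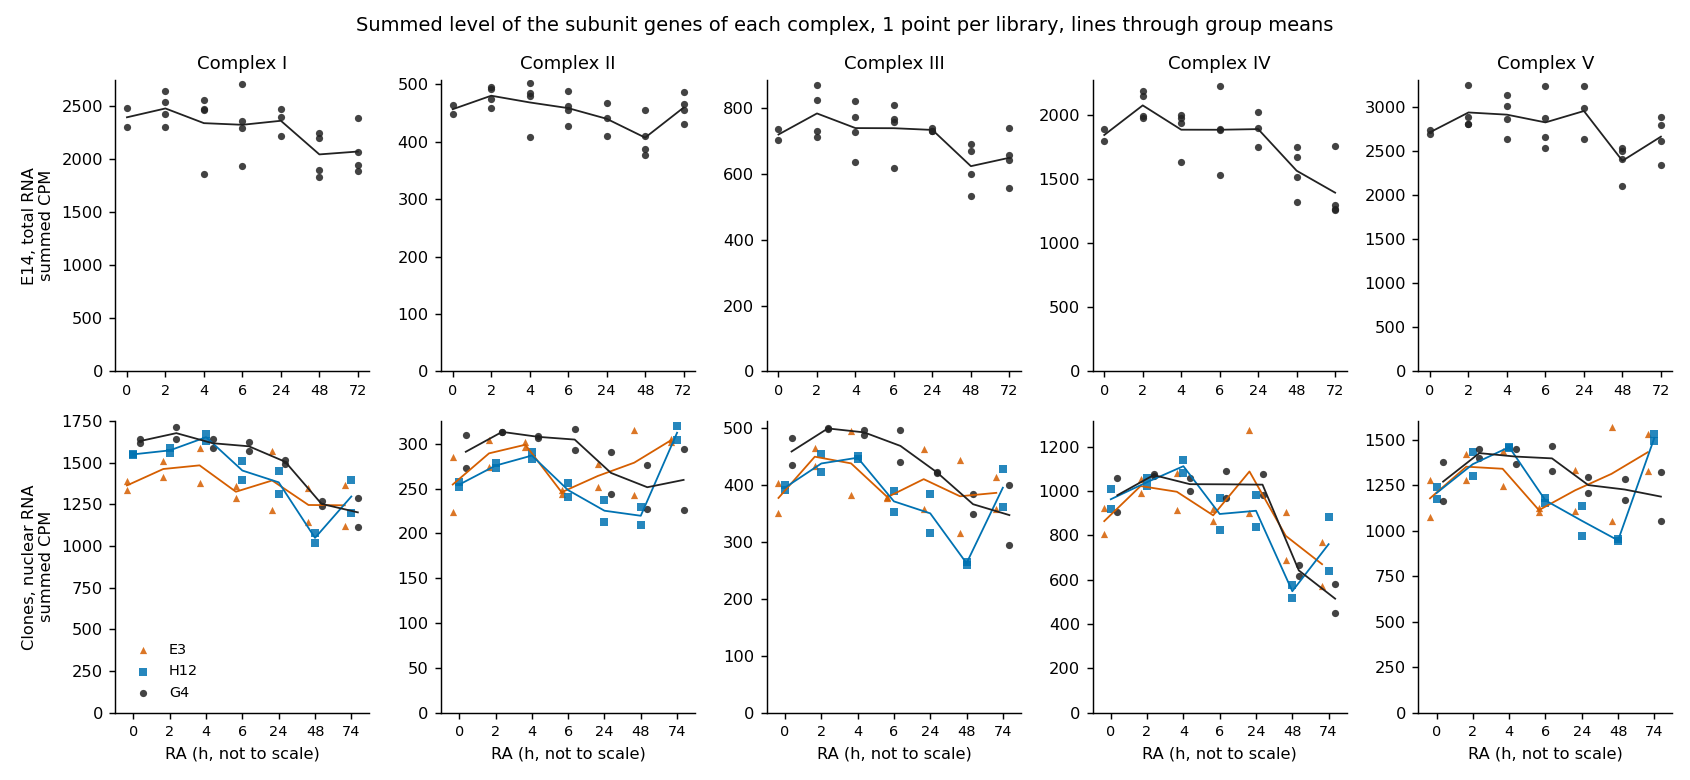
Summed CPM of the subunit genes of complexes I to V at each RA time (h, spaced evenly), in E14 total RNA (upper row) and in nuclear RNA of clones E3, H12 and G4 (lower row). Points are libraries and lines join group means. In E14 complex IV averaged 1392 CPM at 72 h and 1842 CPM at 0 h, while complex V averaged 2660 and 2710 CPM.

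The nuclear RNA of the 3 clones, which shares no library with E14, gave a larger count. In simulated counts a log2 change of 0.5 was called for 77.9% of changed genes in the clones and 11.7% in E14. Numbers of calls therefore cannot be compared between the sets. At 6 h against 0 h, averaged over the clones, Atp5g2 (-0.33) and the complex I accessory subunit Ndufs4 (-0.22) fell and no member rose, against 20.3% of all genes called (10.3% higher and 10.0% lower). At 24 h 14 members fell and 6 rose, where of all genes 55.5% were called, 28.3% higher and 27.2% lower. At 48 h 46 members fell and 2 rose, where of all genes 69.8% were called, 35.0% higher and 34.8% lower. At 74 h 42 fell and 8 rose, 64.1% of members against 73.7% of all genes. Of all genes 36.5% were higher and 37.2% lower at 74 h. The members' median was -0.33 at 74 h and that of all genes -0.01. The authors' scaling changed no count by more than 2 here: 42 fell and 8 rose at 74 h. With clone H12 left out, 40 fell and 3 rose at 74 h (median -0.33), 31 fell and 8 rose at 48 h, 8 fell and 6 rose at 24 h, and 1 fell at 6 h. At 6 h, leaving out any of 10 of the 12 libraries left 0 or 1 call.

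The share of members that fell in the clones varied by complex, and the differences between complexes were not tested. At 74 h, 11 of 14 members of complex IV fell and none rose, with a median log2 fold change of -0.70. In complex I 21 of 37 fell and 3 rose (median -0.34), and in complex III 4 of 8 fell and 1 rose (-0.28). Complex V was divided, with 6 of 15 falling and 4 rising (-0.15). None of the 4 complex II genes was called, and all 4 lay above 0 (median 0.11). When Ndufa4 and Ndufa4l2 were counted with complex IV, 12 of 16 members of that complex fell and 20 of 35 of complex I. Of the 20 core subunits 9 fell and 4 rose, and of the other 58 members 33 fell and 4 rose.

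**Figure D2:**
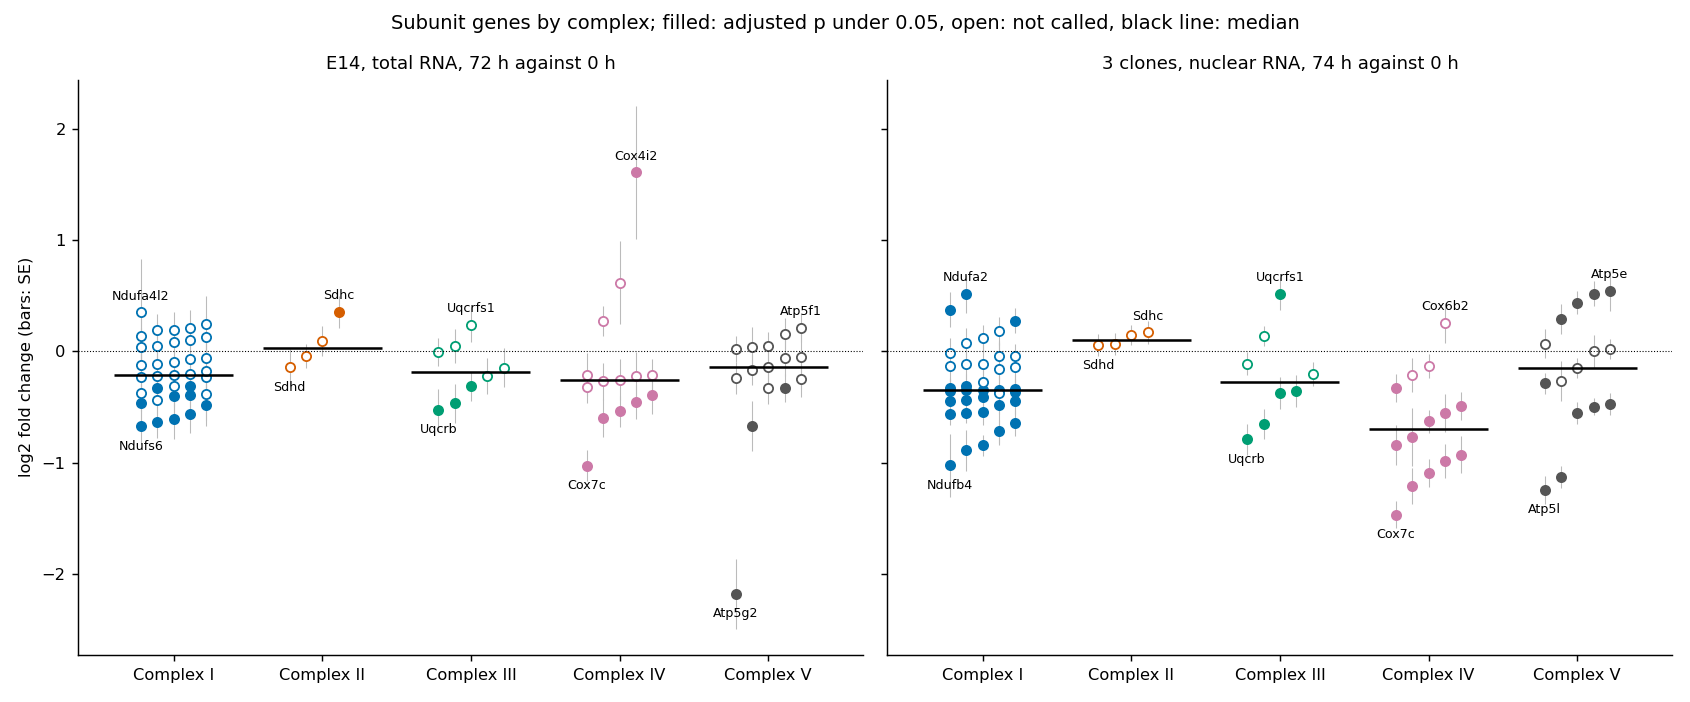
Log2 fold change of each tested subunit gene by complex, at 72 h against 0 h in E14 total RNA (left) and at 74 h against 0 h over the 3 clones in nuclear RNA (right). Filled points passed an adjusted p under 0.05, bars are SE, black lines are medians, and the lowest and highest gene of each complex are named. The complex IV median was -0.26 in E14 and -0.70 in the clones.

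In complex IV the lowest fold changes in nuclear RNA were those of Cox7c and Cox7b, both small subunits. Cox7c had a lowest, median and highest level of 10.8, 12 and 14.3 CPM over the 6 libraries at 74 h, against 30.5, 34.6 and 38.3 CPM over the 6 at 0 h. Its log2 fold change was -1.47 ± 0.12 (SE, adjusted p = 1.22e-12) and the groups did not overlap. Cox7b had 24.5, 40.2 and 48.4 CPM at 74 h against 79.8, 92.3 and 105 CPM at 0 h (-1.21 ± 0.16, adjusted p = 7.64e-08), again with no overlap. Cox6c, Cox7a2 and Cox8a fell by 1.09, 0.98 and 0.93 on the log2 scale. Cox5a, Cox5b and Cox4i1 fell by 0.63, 0.55 and 0.33, and Cox4i1 ranged from 137 to 381 CPM at 74 h and from 256 to 361 CPM at 0 h, so its groups overlapped. Cox6b2, an isoform known from testis, lay at 0.26 ± 0.18 and was not called, nor were Cox6a1 (-0.21 ± 0.16) and Cox7a2l (-0.13 ± 0.11). Cox6b2 was called higher with clone H12 left out (0.72, adjusted p = 0.000805).

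The isoforms Cox7b2 and Cox7a1 took another course. Cox7b2, known from testis, rose at 24 h by 0.85 and at 48 h by 0.55 on the log2 scale, and fell by 0.84 at 74 h (adjusted p = 0.000121). Its median level was 10.7 CPM at 0 h, 18.8 CPM at 24 h, 14 CPM at 48 h and 5.67 CPM at 74 h. These nuclear reads were counted over its whole span of 105383 bases. Over exons in E14, Cox7b2 had 64 reads in 25 libraries and was not tested, and the authors' class was "stably_inactive". Whether its nuclear reads lie in exons was not examined. Cox7a1 had medians of 2.16 CPM at 0 h, 3.54 CPM at 24 h and 1.32 CPM at 74 h, with changes of 0.68 ± 0.23 at 24 h (adjusted p = 0.0113) and -0.77 ± 0.26 at 74 h (adjusted p = 0.00885). Muscle markers, among them Tnnt2 and Myod1, summed to 5.63 to 23.7 CPM over all clones at 74 h and 8.82 to 12.5 CPM at 0 h.

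Complex V held both rises and falls. The genes of the alpha and beta subunits, which form the catalytic head, rose. Atp5a1 had a lowest, median and highest of 231, 369 and 420 CPM at 74 h against 216, 242 and 308 CPM at 0 h (0.52 ± 0.11, adjusted p = 0.000154). Atp5b had 370, 552 and 660 CPM at 74 h against 326, 387 and 478 CPM at 0 h (0.44 ± 0.11, adjusted p = 0.000420). The groups overlapped for both. The small epsilon subunit Atp5e and the factor B gene Atp5s also rose, by 0.55 and 0.29. Among the falls, Atp5l, which encodes subunit g of the membrane part (mm10 chr9:44913248-44920742), had 9.10, 10.9 and 14 CPM at 74 h against 23.6, 25.0 and 32.5 CPM at 0 h (-1.25 ± 0.13, adjusted p = 2.06e-10), and the groups did not overlap. Atp5g2 had 13.2, 15.8 and 23.9 CPM at 74 h against 30.4, 35.9 and 45.1 CPM at 0 h (-1.13 ± 0.10, adjusted p = 5.58e-12), also without overlap. The gamma subunit gene Atp5c1, of the central stalk, fell by 0.50 ± 0.08. In G4 alone Atp5a1 and Atp5b changed by 0.10 ± 0.20 and 0.01 ± 0.18 and were not called. With clone H12 left out Atp5b (0.29, adjusted p = 0.0778), Atp5e (0.36, adjusted p = 0.148) and Atp5s (0.36, adjusted p = 0.0690) were not called.

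In complex I, accessory subunits led the falls. Ndufs6 had 14.5, 16.6 and 20.3 CPM at 74 h against 27.6, 30.3 and 34.4 CPM at 0 h (-0.84 ± 0.09, adjusted p = 1.93e-09), with no overlap. Ndufb4 (-1.02 ± 0.28), Ndufa1 (-0.89 ± 0.18) and Ndufa7 (-0.72 ± 0.10) fell as well. Among the core subunits of the peripheral arm, Ndufs1, Ndufs3, Ndufs7, Ndufs8 and Ndufv2 fell by 0.31 to 0.55, and Ndufv1, the NADH-binding subunit, rose by 0.28 ± 0.12 (adjusted p = 0.0308). Ndufv1 had 40.4, 52.8 and 68.4 CPM at 74 h against 40.4, 43.7 and 46.9 CPM at 0 h, so the groups overlapped. Ndufa2 and Ndufb7 rose by 0.52 and 0.38. With clone H12 left out, Ndufv1 (0.15, adjusted p = 0.396), Ndufa2 (0.26, adjusted p = 0.324), Ndufb7 (0.24, adjusted p = 0.268) and Ndufb4 (-0.79, adjusted p = 0.0529) were not called. Ndufa4l2 was highest at 24 h, with 1.71, 3.79 and 6.39 CPM at 24 h against 0.256, 0.754 and 2.64 CPM at 0 h (2.12 ± 0.34, adjusted p = 3.50e-06), and at 74 h it had a median of 0.375 CPM.

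In complex III 4 small subunits fell and the Rieske protein gene rose. Uqcrb had 6.02, 8.22 and 8.55 CPM at 74 h against 12.2, 13.2 and 14.2 CPM at 0 h (-0.79 ± 0.14, adjusted p = 8.85e-06), and the groups did not overlap. Uqcr10, Uqcr11 and Uqcrq fell by 0.66, 0.37 and 0.35. Uqcrfs1, the iron-sulfur subunit that hands electrons to cytochrome c1, had 23.7, 32.3 and 35.0 CPM at 74 h against 17.6, 20.6 and 27.6 CPM at 0 h, a rise of 0.52 ± 0.15 (adjusted p = 0.00196) with overlapping groups. The core proteins Uqcrc1 and Uqcrc2 were not called (-0.20 ± 0.11 and 0.14 ± 0.09), nor was the small subunit Uqcrh (-0.11 ± 0.10). Uqcrc1 was called lower with clone H12 left out (-0.38, adjusted p = 0.0260), and then Uqcrq was not called (-0.32, adjusted p = 0.159).

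**Figure D3:**
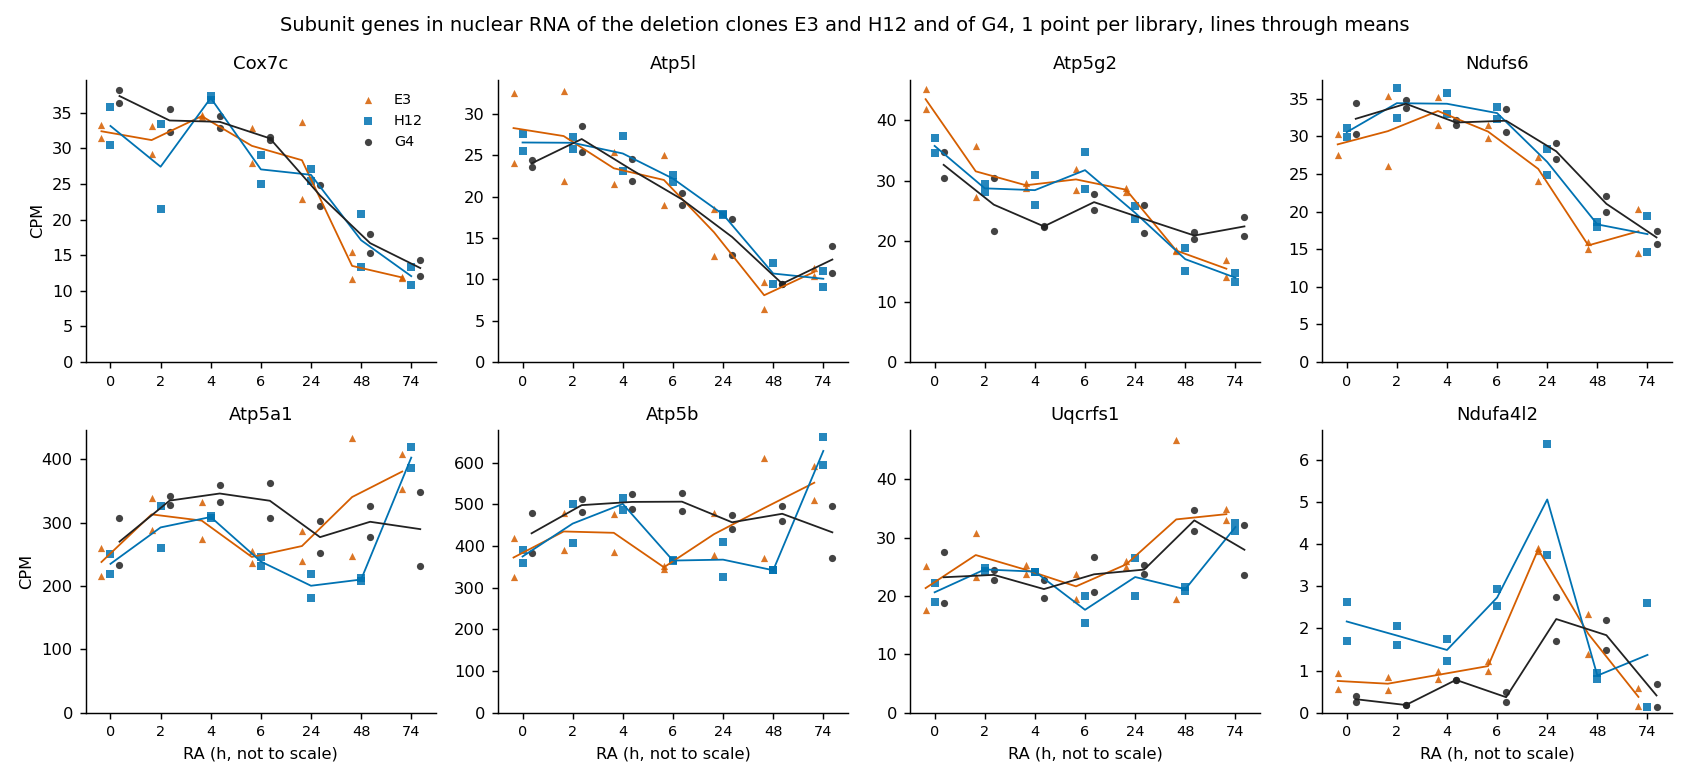
CPM of 8 subunit genes in nuclear RNA at each RA time (h, spaced evenly), for the deletion clones E3 and H12 and for G4. Points are libraries and lines join means. Cox7c, Atp5l, Atp5g2 and Ndufs6 were lower in each clone at 74 h, while Ndufa4l2 was highest at 24 h, with a median of 3.79 CPM.

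The total and the nuclear RNA courses were set side by side gene by gene, as a description over the 76 members tested in both. Of the 21 members that fell in E14 at 72 h, 18 also fell in the clones at 74 h, which is 85.7% of the E14 falls and 42.9% of the clone falls. In the clones at 74 h 42 of the 78 members tested and 37.2% of all genes fell. How many of all genes lower in E14 also fell in the clones was not counted. The overlap can therefore not be called particular to these members. The 18 were Atp5c1, Atp5g2, Atp5l, Cox4i1, Cox6c, Cox7a2, Cox7c, Ndufa5, Ndufa8, Ndufa9, Ndufb5, Ndufb6, Ndufb9, Ndufs1, Ndufs3, Ndufs6, Uqcr10 and Uqcrb. With the authors' scaling, Cox7c and Atp5g2 were the only 2 of these 18 called lower in E14. Cox7c and Atp5g2 share 53.7% and 87.5% of their 42-base stretches with other transcripts, so their values are uncertain. With TMM no member rose in both, and Ndufv1 was called in opposite directions (-0.31 in E14, 0.28 in the clones). Its E14 call was lost with the authors' scaling (-0.04, adjusted p = 0.863) and its clone call without H12 (0.15, adjusted p = 0.396). Across the 76 genes the fold changes had the same sign for 56, with a Pearson r of 0.53 and a Spearman rho of 0.56. At 48 h the same sign held for 61 (r of 0.63 and rho of 0.61). Genes are not independent replicates, and the sets share the gene models and the kind of library. The correlations between the sets were not computed over all genes. Between log2 gene span and the change, r was 0.01 in either set. The share of 42-base stretches found in other transcripts went with lower values by Pearson r (-0.46 in E14 and -0.37 in the clones). By rank the relation was weaker, with a Spearman rho of -0.20 in E14 and -0.27 in the clones. Among members with under 10% of such stretches shared, 12 fell and 2 rose in E14 and 29 fell and 8 rose in the clones.

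**Figure D4:**
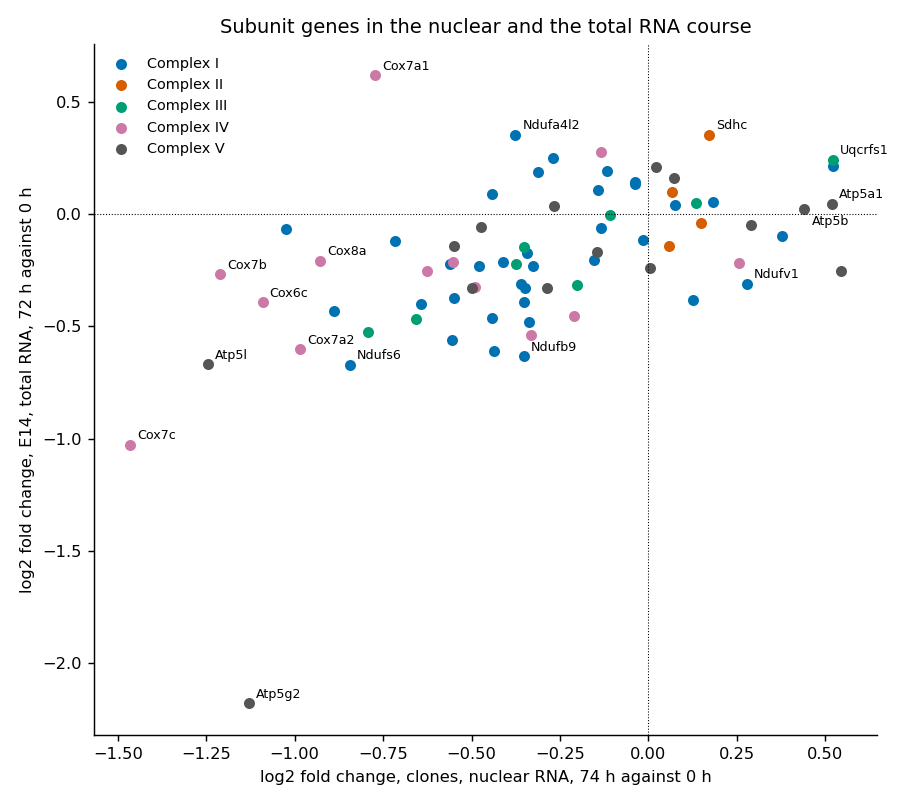
Log2 fold change of 76 subunit genes at 74 h against 0 h over the 3 clones in nuclear RNA (x axis) and at 72 h against 0 h in E14 total RNA (y axis), colored by complex. Cox7c lies lowest on the x axis and Atp5g2 on the y axis, and Ndufv1 lies on opposite sides.

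The falls in nuclear RNA can be read back onto the promoter windows shown above. Of the 36 members with a window that fell at 74 h, 12 held a motif, with the NRF1 core in 4, the ETS motif in 4 and the YY1 motif in 5. Of the 24 not called, 10 held a motif, with the NRF1 core in 6. None of the 6 that rose held any of the 4 motifs.

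Genes that work with the complexes were counted from lists chosen by function, where of all genes 37.2% fell and 36.5% rose in the clones at 74 h, and 29.3% fell and 30.4% rose in E14 at 72 h. Of 45 assembly factors, 27 fell and 5 rose in the clones at 74 h, and 17 fell and 3 rose in E14 at 72 h. They included Ndufaf4, a complex I assembly factor, at -1.33 in the clones and -1.02 in E14, and Cox19, which works in copper delivery to complex IV, at 0.96 and 0.73. Of 14 electron carriers and feeders 8 fell and 2 rose in the clones and 4 fell and 3 rose in E14. Proline dehydrogenase (Prodh) and dihydroorotate dehydrogenase (Dhodh), which feed ubiquinone, fell by 1.35 and 1.27 in the clones and by 1.93 and 1.54 in E14, and Etfdh rose by 0.35 and 0.81. Among 18 genes of the TCA cycle and pyruvate dehydrogenase, 4 fell and 4 rose in the clones and 4 fell and 6 rose in E14. Pdk1, which inhibits pyruvate dehydrogenase, fell by 1.75 in the clones and 1.5 in E14, and Idh2 rose by 1.59 and 1.58. Of the mitochondrial regulators tested, 9 of 18 fell and 4 rose in the clones and 6 of 17 fell and 3 rose in E14. Esrrb, a receptor that is also a pluripotency factor, fell by 5.30 in the clones and 1.63 in E14, the mitochondrial transcription factor Tfb2m fell by 1.59 and 1.24, and Esrrg rose by 2.75 and 2.50. With the authors' scaling the E14 counts were 4 falls and 5 rises of assembly factors, 3 and 5 of carriers and feeders, 2 and 8 of TCA cycle genes and 5 and 3 of regulators, and each of the 10 genes named kept its E14 call.

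Other gene groups were counted at the same times, against the same shares of all genes. Of 78 mitochondrial ribosome genes 49 fell and 8 rose in the clones (median -0.40), and 38 fell and 3 rose in E14 (-0.34). Of 85 cytosolic ribosomal protein genes 65 fell and 4 rose in the clones (-0.52), and 49 fell and 2 rose in E14 (-0.47). Of 17 glycolysis genes 8 fell and 5 rose in the clones (-0.27), and 6 fell and none rose in E14 (-0.22). The last time does not stand for the whole E14 course of this group. Its summed level was 8227 to 8568 CPM at 0 h and 10849 to 11515 CPM at 24 h. It was 11918 to 15624 CPM at 48 h and 6452 to 11980 CPM at 72 h. With the authors' scaling, which moved the median of all genes to 0.27, the E14 counts were 13 falls and 6 rises for the mitochondrial ribosome (-0.07), 33 and 12 for cytosolic ribosomal proteins (-0.19), and 3 and 2 for glycolysis (0.05).

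The deletion clones were set against G4. Since each is a lone clone, loss of the Hoxb enhancer cannot be told apart from other differences between the clones. Averaged over the 7 times, 10 members were lower and 2 higher in the deletion clones than in G4, against 30.7% of all genes called (16.9% lower and 13.8% higher). The largest difference was Ndufa4l2, higher by 1.20 ± 0.25 (SE, adjusted p = 0.000454), but it also differed between the deletion clones (E3 minus H12, -0.84 ± 0.23). Ndufs4, an accessory subunit of complex I whose loss causes Leigh syndrome in humans, was lower by 0.56 ± 0.04 (adjusted p = 8.75e-12). At 0 h it had 121 and 137 CPM in E3 and 121 and 146 CPM in H12, against 189 and 218 CPM in G4, with no overlap. The genes around Ndufs4 on chromosome 13 were lower too: the 20 nearest tested genes had a median of -0.42, with 11 called lower and 3 higher. The same held around Uqcrq (-0.45, neighbours -0.30) and Uqcr10 (-0.30, neighbours -0.24), both on chromosome 11, and around Cox7a2l (-0.33, neighbours -0.43) on chromosome 17. Cox7a2l, known for joining complexes III and IV into supercomplexes, was higher in E3 than in H12 by 0.95 ± 0.07, and its neighbours by 1.06. With members kept only where the neighbours' median lay within 0.1 of 0, 4 were lower and 2 higher. With clone H12 left out 3 were lower and 1 higher, and Cox7a2l changed sign (0.15, adjusted p = 0.198). Without replicate 1 of E3 at 48 h, 17 were lower and 2 higher. Between E3 and H12, 6 members were higher and 5 lower, against 40.9% of all genes (20.2% higher and 20.7% lower), 11 in all against the 12 that differed between the deletion clones and G4. Without H12 replicate 1 at 48 h or replicate 2 at 6 h the number called between E3 and H12 was 6, and without H12 replicate 2 at 4 h it was 7.

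**Figure D5:**
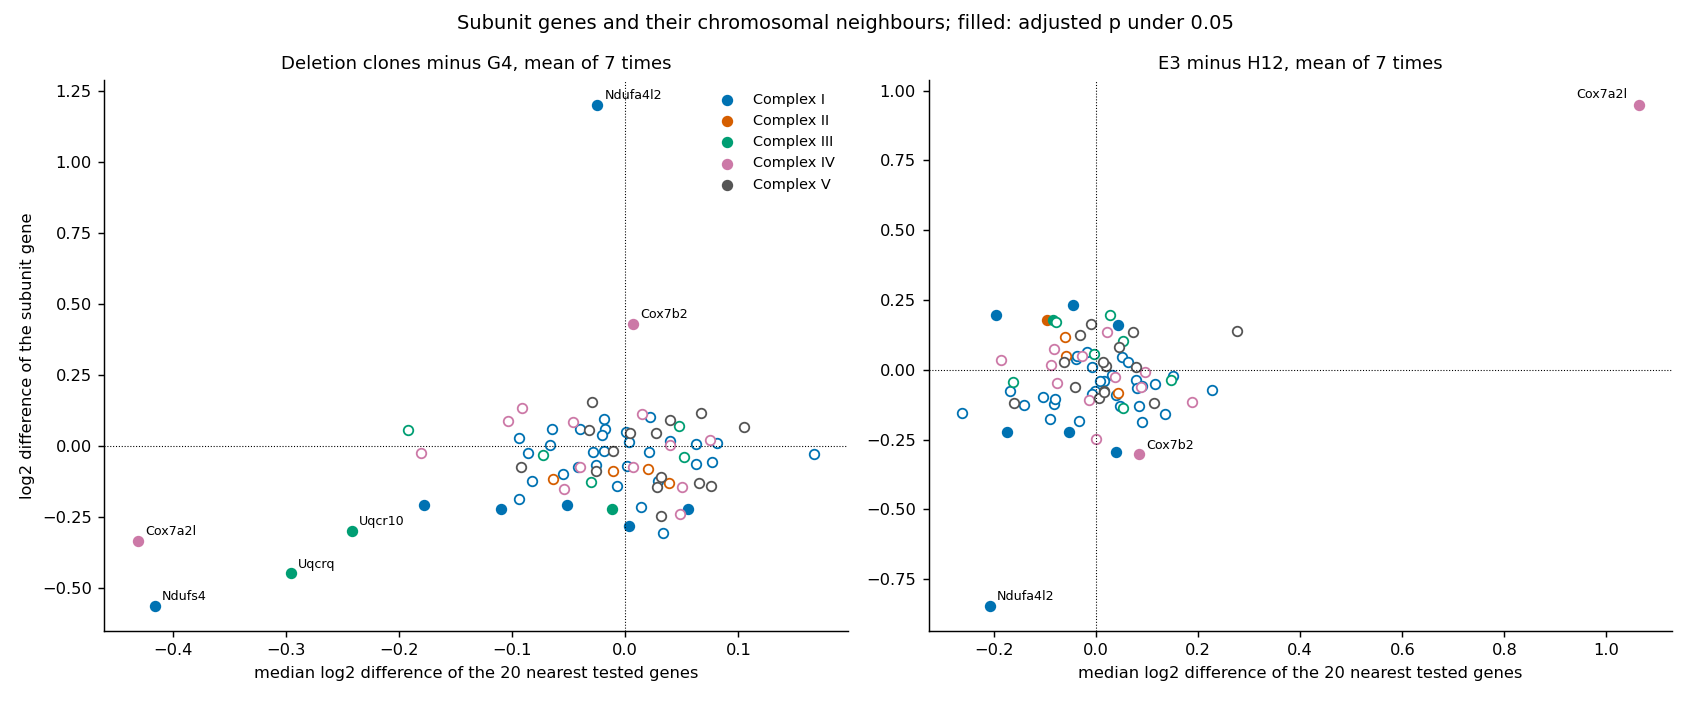
Log2 difference of each subunit gene (y axis) against the median log2 difference of its 20 nearest tested genes (x axis), for the deletion clones minus G4 (left) and E3 minus H12 (right), each over 7 times. Filled points passed an adjusted p under 0.05. Ndufs4, Uqcrq, Uqcr10 and Cox7a2l lie low together with their neighbours, and Ndufa4l2 lies high with neighbours near 0 on the left.

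The fall with RA was set against the deletion in the same clones. In G4 alone 38 members fell and 1 rose at 74 h, against 56.3% of all genes called (28.5% higher and 27.8% lower), with a median of -0.45. The difference of the 74 h response, deletion clones minus G4, was above 0 for 61 of 78 members with a median of 0.21, against -0.01 for all genes. That median was 0.36 with clone H12 left out and 0.13 to 0.31 with any 1 library left out. The difference was called for 5 members, against 6.95% of all genes (3.82% higher and 3.13% lower). Among them Cox6a1 (1.07 ± 0.33, adjusted p = 0.0493), Cox4i1 (0.89 ± 0.27, adjusted p = 0.0404) and Sdha (0.61 ± 0.19, adjusted p = 0.0453) had a higher response in the deletion clones. Atp5g2 fell more in them (-0.88 ± 0.20, adjusted p = 0.00704). Cox6a1 had 73.7 and 118 CPM in E3 and 166 and 110 CPM in H12 at 74 h, against 67.8 and 51.6 CPM in G4. At 0 h it had 90.0 and 90.7 CPM in E3 and 127 and 113 CPM in H12, against 120 and 108 CPM in G4. At 74 h all 4 deletion libraries lay above both of G4, and at 0 h the groups overlapped. Without G4 replicate 2 at 74 h none of the 5 was called and 18 members were called in G4 alone (24 without G4 replicate 1 at 0 h), while without G4 replicate 1 at 74 h the difference was called for 11. Leaving out any of 6 other libraries left 1 or 2 calls, and with clone H12 left out none was called. At 74 h itself 5 members were higher and 4 lower in the deletion clones than in G4, against 17.1% of all genes (7.66% higher and 9.40% lower). Ndufs4 was 0.76 lower and Cox6a1 0.95 higher. Without G4 replicate 2, or with clone H12 left out, 1 was called, and without E3 replicate 2 or H12 replicate 1 at 74 h 5 were.

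Among the summed levels of the 5 complexes, that of complex IV had the lowest ratio in each clone. The ratio of the mean at 74 h over the mean at 0 h for complex IV was 0.775 in E3, 0.789 in H12 and 0.524 in G4, and no library at 74 h reached the level of its clone at 0 h. For complex I it was 0.913, 0.837 and 0.737 in the same order of clones, and for complex III 1.02, 1.00 and 0.757. For complex II it was 1.19 in E3, 1.23 in H12 and 0.892 in G4, and for complex V 1.22, 1.25 and 0.935. In E3 and H12 the complex II and complex V sums at 74 h lay above those at 0 h without overlap. Such sums lean on abundant genes. Atp5b and Atp5a1, the most abundant of complex V in reads, rose over the clones by 0.44 and 0.52 on the log2 scale. More members of complex V fell than rose, so its sum does not stand for its members. For comparison, the summed mitochondrial ribosome genes had a ratio of 0.774 in E3, 0.753 in H12 and 0.770 in G4.

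Loss of cohesin was set against these genes in the SCC1-mAID cells. No member was called by edgeR in any of the 5 comparisons. Power was low: in simulated counts for auxin and RA against auxin, a log2 change of 0.5 was called for 4.59% of changed genes. A log2 change of 1 was called for 49.5%. Of all genes 2.57% were called for RA against untreated, 0.235% for auxin against untreated, 2.63% for auxin and RA against auxin, 0.363% for auxin and RA against RA, and 0 for the difference of the RA response. At an unadjusted p under 0.05 the members numbered 0, 11 (1 higher and 10 lower), 18 (17 and 1), 2 (2 and 0) and 15 (15 and 0) in that order. For auxin and RA against auxin, DESeq2 called 1 member, the fit with no count filter called 1 higher and 1 lower, and both limma fits called none. In the other 4 comparisons DESeq2 and both limma fits called none. In that comparison 68 of 77 members lay above 0 with a median of 0.29, and the summed level of all members was 10460, 7798 and 11312 CPM with auxin and RA, against 9749, 7767 and 6370 CPM with auxin alone. The groups overlapped. Without the auxin library of replicate 1, 11 members were called, and without the auxin and RA library of replicate 2, 9. The authors' scaling put the members' median at 0.05 and that of all genes at -0.14. For the difference of the RA response it put them at -0.04 and -0.33, where TMM gave 0.35 and 0.01. Cox4i1 had 747, 528 and 921 CPM with auxin and RA, 801, 480 and 428 CPM with auxin, 657, 586 and 645 CPM with RA, and 646, 586 and 701 CPM untreated, and the 4 groups overlapped.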

How the data were processed

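RNA was depleted of ribosomal RNA, made into directional libraries and read as pairs of 42 bases, per the labels' protocols. STAR, Bowtie2, SAMtools and DESeq2 and the builds mm10 and dm6 are named in the submitters' processing notes without versions. The values used are the authors' deposited signal per transcript, which is reads divided by 1 size factor per library. Multiplying back gave whole read counts for 99.997% or more of the deposited values in every library, within 0.1 read. The authors' deposited FPKM served only to compare levels between genes. Divided by reads over exonic length, FPKM lay within 10% of the median ratio for 67.9% of members and at 0.334 to 4.97 times it over all members, so the order of levels between genes is approximate. E14 counts are of total RNA over exons and those of the clones and SCC1-mAID cells of nuclear RNA over whole gene spans, so levels were not compared between sets.

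Members, gene lists and tests were chosen with earlier results of these data known. For each gene the transcript with the highest mean signal was kept. The design assumed signal, and since it gave whole reads, the recovered counts were tested with edgeR 4.0.16 (TMM, filterByExpr, robust quasi-likelihood, all groups of a set in 1 fit) in R 4.3.3, with Benjamini-Hochberg adjustment over 15084 genes in E14, 15923 in the clones and 14031 in SCC1-mAID cells. SE is the log2 fold change over the root of F. Named members were the largest changes of each complex past the threshold, the core subunits and the isoform groups. Other members named, among them Ndufa7, Ndufb7, Uqcr10, Cox6c and Cox8a, were chosen after their values were seen. Values of 1 member are not reported here, although it stays in the counts. Alternatives were the authors' size factors, DESeq2 1.42.0, limma 3.58.1 on log2 CPM and on log2 of deposited signal with a pseudocount of 1, no filter, only the compared groups, a replicate block and leaving out each library. The fits were tested on simulated counts of the compared groups alone. A log2 change of 0.5 was called for 77.9% of changed genes in the clones at 74 h against 0 h. It was called for 11.7% in E14 at 72 h against 0 h, and 4.59% in SCC1-mAID cells for auxin and RA against auxin. A log2 change of 1 was called for 100%, 87.6% and 49.5% in the same order. Libraries of 1 group differed by a chi-square per gene of 2.42 to 32.5, so none was counted as a duplicate. Motifs were searched in RefSeq windows on GRCm38.p6.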

Additional observations from a re-analysis of the deposited data

Results flagged for a closer look

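Single libraries lay far from the other 3 of their E14 group in 12 of 140 examinations, which took in 22 genes and 6 sums in 5 groups of 4 libraries. Chance flags about 1 in 20 groups. At 2 h Atp5b was high in replicate 2 at 1232 CPM. At 4 h replicate 2 was low in the sums of complex I (1861 CPM) and complex IV (1631 CPM) and in Sdhc (48.3 CPM), and high in Cox6a1 (260 CPM), and Ndufv1 was high in replicate 1 at 103 CPM. At 6 h Ndufa4l2 was low in replicate 1 at 0.867 CPM and Ndufv1 high in replicate 4 at 107 CPM. At 48 h Atp5g2 was high in replicate 1 at 5.57 CPM. At 72 h replicate 1 was high in Cox6a1 (215 CPM), Cox7a2 (114 CPM) and the sum of complex IV (1754 CPM).

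The 74 h response differed between the deletion clones and G4 for 5 members, 4 of them given here, in edgeR's test of the difference itself, given as deletion clones minus G4 on the log2 scale. The differences were 1.07 for Cox6a1, 0.89 for Cox4i1, 0.61 for Sdha and -0.88 for Atp5g2. For all 5 the call was lost without G4 replicate 2 at 74 h. The 74 h libraries of H12 held more extra-embryonic endoderm marker RNA than those of E3 and G4, and its part in these differences was not tested.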

How the results depend on the processing

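With a replicate block, counts of called members stayed within 1.5 times those without it: 24 fell and 2 rose in E14 at 72 h, and 42 fell and 8 rose in the clones at 74 h. The labels give no pairing by number, and not every same-numbered pair of libraries deviated together over 0.1, so the block was not used for the values reported. It was 28 of 67 same-numbered pairs in E14 (median correlation 0.077) against 33 of 199 others (-0.016). In SCC1-mAID cells it was 10 of 18 (0.158) against 5 of 36 (-0.085). In the clones it was 196 of 420 same-numbered pairs (0.091) and 30 of 420 others (-0.091). With 2 libraries per clone and time, deviations from the group mean are equal and opposite. The clone correlations of other pairs thus mirror the same-numbered ones and are no separate comparison. These counts are a hint from the data and not from the design. With the authors' size factors 12 members were called in E14 at 48 h (10 lower), 3 at 48 h against 24 h (all lower), 10 at 72 h (8 higher and 2 lower) and 12 at 72 h against 48 h (11 higher and 1 lower). With limma on log2 of deposited signal the E14 counts were 1 at 24 h (higher), 10 at 48 h (9 lower), 3 at 48 h against 24 h (all lower), 6 at 72 h (4 higher and 2 lower) and 13 at 72 h against 48 h (11 higher and 2 lower). With limma on log2 CPM 5 were called at 72 h against 48 h. With replicates 3 and 4 only, 5 were called at 24 h (4 lower) and 37 at 48 h (35 lower). With only the compared groups in the fit, 7 were called at 48 h against 24 h. Without a count filter 1 was called in the clones at 6 h, 2 for the difference of response and 2 for auxin and RA against auxin, where DESeq2 called 1. The next 3 choices were made after seeing the data. Among members with under 10% of 42-base stretches shared 14 were called in E14 at 72 h. Among those with neighbours within 0.1 of 0, 6 were called between the deletion clones and G4. With clone H12 left out 1 was called at 6 h, 1 between the deletion clone and G4 at 74 h, 0 for the difference of response and 4 averaged over times, with Cox7a2l at 0.15 against -0.33 with both clones.

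Leaving out 1 library gave 0 to 3 calls in E14 at 24 h, 9 to 23 at 48 h, 5 to 13 at 48 h against 24 h, 7 to 28 at 72 h and 0 to 5 at 72 h against 48 h. In the clones it gave 0 to 3 at 6 h, 15 to 24 at 24 h, 42 to 49 at 48 h, 41 to 51 at 74 h and 18 to 35 in G4 alone. It gave 10 to 19 for the deletion averaged over times, 1 to 11 at 74 h, 0 to 11 for the difference of response and 6 to 16 between E3 and H12. For auxin and RA against auxin it gave 0 to 11, and 0 in the other SCC1-mAID comparisons and in E14 at 2, 4 and 6 h. The cause of these shifts was not tested. Members at a few CPM, such as Cox4i2 and Ndufa4l2, are limited by depth.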
